A study of Mus musculus with 4 samples.

Results

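The genes described here build the late cornified envelope of the epidermis and crosslink it. They were chosen by name, as the rows of the count table whose symbol is 1 of 33 fixed members, and all 33 were found among the 56493 genes listed. They comprise 14 Lce1, 6 Lce3 and 1 Lce6 gene of the late cornified envelope family (Lce6a). The others are 7 structural precursors (Lor, Ivl, Ppl, Evpl, Crct1, Kprp and Cnfn), 3 transglutaminases (Tgm1, Tgm3 and Tgm5), Cdsn and Nccrp1. RNA came from the epidermal layer of mouse dorsal skin, in 4 libraries. Of these, 2 came from mice in which the floxed alleles of Stim1 and Stim2 are deleted by a Cre recombinase under the keratin 14 promoter (cKO), and the other 2 from Stim1/2 fl/fl mice, with both genes floxed (Flox/Flox, called control). The labels give no age or sex, do not say whether the control mice carry Cre, and do not say whether libraries of a group came from separate animals, so that p-values measure the spread between these libraries only. The encoded proteins, STIM1 and STIM2, sense loss of calcium from the endoplasmic reticulum and trigger calcium entry from outside the cell. The keratin 14 promoter is active in basal cells of stratified epithelia, so the deletion reaches hair follicle epithelium as well as interfollicular epidermis.

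As a keratinocyte moves to the skin surface, it replaces its plasma membrane with a shell of crosslinked protein. Involucrin, envoplakin and periplakin are laid down first as a scaffold, loricrin and small proline-rich proteins are then added as the bulk of the shell, and the small cysteine-rich late cornified envelope proteins are incorporated last. Transglutaminases, enzymes that need calcium, join glutamine and lysine side chains of these proteins, and rising calcium is a classical signal for the whole programme in cultured keratinocytes.

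The libraries were shallow, with total counts from 118858 in cKO replicate 2 to 322426 in control replicate 2. Values are given as counts and as CPM, the count relative to the TMM-normalised library size in the usual CPM unit. There, 3 counts, the most that a count of 0 allows, equalled 9.58 to 33.7 CPM. The targeted genes were low in every library. Stim1 had 92.999 and 67.4 CPM in cKO and 128.1 and 198.0 CPM in control, and Stim2 had counts of 0 and 1 in cKO and 3 and 18 counts in control. The groups did not overlap in either gene, a pattern that 38.5% of tested genes had in one direction or the other, and neither passed the test (edgeR adjusted p 0.671 and 0.635). Unprocessed pseudogenes among the 20 most abundant genes took shares of 13.7% and 23.2% in the cKO libraries against 13.5% and 8.01% in control, so the libraries with the largest and the smallest share also differ in depth.

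Promoters of 4 Lce genes are shown first, because Lce1e, Lce1g and Lce3c were called higher in cKO, whereas Lce1m was not called and had a log2 fold change below 0. Each sequence runs 5′ to 3′ on the strand of the gene, from 250 bases before to 50 bases after the start of transcription (RefSeq, GRCm38.p6). Capitals in Lce1e and Lce1g mark a word of 12 letters that 7 of 13 Lce1 promoters share. Capitals in Lce1m mark TATAAA, and capitals in Lce3c mark matches of TGACNNNGC read on the opposite strand.
Lce1e (chr3:92709025-92709324, minus strand): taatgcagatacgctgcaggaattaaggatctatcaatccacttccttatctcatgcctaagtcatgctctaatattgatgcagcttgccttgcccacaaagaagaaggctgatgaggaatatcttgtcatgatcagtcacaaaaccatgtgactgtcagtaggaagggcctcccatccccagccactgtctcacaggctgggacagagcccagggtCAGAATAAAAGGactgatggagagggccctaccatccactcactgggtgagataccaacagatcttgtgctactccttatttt
Lce1g (chr3:92752289-92752588, minus strand): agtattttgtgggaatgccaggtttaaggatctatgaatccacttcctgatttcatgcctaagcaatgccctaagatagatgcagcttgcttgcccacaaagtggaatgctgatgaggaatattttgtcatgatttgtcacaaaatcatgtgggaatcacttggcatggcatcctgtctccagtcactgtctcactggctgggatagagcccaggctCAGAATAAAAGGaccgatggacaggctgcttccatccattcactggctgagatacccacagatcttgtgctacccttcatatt
Lce1m (chr3:93019012-93019311, minus strand): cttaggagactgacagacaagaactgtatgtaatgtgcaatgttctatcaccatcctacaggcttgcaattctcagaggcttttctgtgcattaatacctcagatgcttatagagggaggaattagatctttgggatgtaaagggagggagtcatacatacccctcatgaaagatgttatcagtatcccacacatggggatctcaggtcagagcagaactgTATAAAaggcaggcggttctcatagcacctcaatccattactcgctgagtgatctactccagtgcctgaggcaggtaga
Lce3c (chr3:92944236-92944535, plus strand): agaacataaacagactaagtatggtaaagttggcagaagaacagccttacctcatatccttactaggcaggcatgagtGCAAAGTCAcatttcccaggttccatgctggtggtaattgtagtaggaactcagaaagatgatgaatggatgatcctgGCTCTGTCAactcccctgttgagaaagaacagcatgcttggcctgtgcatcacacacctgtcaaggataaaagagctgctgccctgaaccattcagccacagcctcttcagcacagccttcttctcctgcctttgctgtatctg

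The promoter table matched 27 of the 33 members, 13 Lce1 and all 6 Lce3 genes among them; Lce1f, Kprp, Crct1, Nccrp1, Ppl and Evpl were not matched. The shared word, CAGAATAAAAGG, began at base -33 in each of the 7 promoters that hold it (Lce1a2, Lce1c, Lce1e, Lce1g, Lce1h, Lce1i and Lce1j) and occurred in 7 of all 32851 promoters. It was found after the sequences were seen, and it is not the only word of 12 letters held by 7 of 13 Lce1 promoters. Another, which also occurred in 7 of all 32851 promoters, is in Lce1b but not in Lce1a2. It begins after the start of transcription, at a position that varies between promoters. The shared word was thus chosen from tied words, and its fixed position at base -33 is no separate finding. The promoters of Lce1d and Lce1m hold TATAAA at bases -30 and -29 instead, a motif present in 13.6% of all promoters. In global alignments, Lce1m was 52.4% to 55.2% identical to the other Lce1 promoters. The other 12 were 51.0% to 86.0% identical to one another, with a median of 66.6%. Among these 12, Lce1l was as distant as Lce1m, from 51.0% identity with Lce1h to 56.2% with Lce1e. Lce1 promoters were 47.4% to 57.7% identical to Lce3 promoters. On either strand, TGANTCA, the core site of AP-1, was in 0 of 13 Lce1 and 0 of 6 Lce3 promoters, in those of Lor (base -48) and Ivl (base -116), and in 7.81% of all promoters. TGGAAA, a core of NFAT sites, was in 0 of 13 Lce1 and 2 of 6 Lce3 promoters against 21.4% of all. TGACNNNGC, a core of antioxidant response elements, was in 1 of 13 Lce1 and 3 of 6 Lce3 promoters against 12.4% of all. AACCGGTT, a grainyhead site, was in 0 of 27 member promoters and in 0.146% of all. A stretch can match both TGANTCA and TGACNNNGC, since their letters overlap. A match of letters describes the sequence only.

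The share of all counts that fell on Lce1 genes was 0.855% (95% exact binomial interval 0.822% to 0.890%) and 0.300% (0.270% to 0.33%) for the cKO replicates. For the control replicates it was 0.102% (0.0884% to 0.117%) and 0.673% (0.645% to 0.702%). Intervals here cover counting error only. The groups overlapped, since control replicate 2 lay above cKO replicate 2, and the control libraries differed from each other by more than the group means did. The same pattern ran through most of the envelope genes. Of the 25 members that passed the count filter, 21 were higher in control replicate 2 than in control replicate 1, with a median ratio of 2.89, and 22 were higher in cKO replicate 1 than in cKO replicate 2, with a median ratio of 1.88. Over 4071 tested genes with a count in every library, these median ratios were 1.01 and 0.999. The summed markers of suprabasal keratinocytes (Krt1, Krt10, Dsg1a, Dsc1, Krtdap and Sbsn), all 6 of them detected, were likewise high in cKO replicate 1 and control replicate 2, with 1.37% and 0.793% of counts in cKO and 0.707% and 1.56% in control. Their part in the differences between libraries was not tested, and in bulk RNA fewer cells of a layer and less RNA per cell cannot be told apart.

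**Figure D1:**
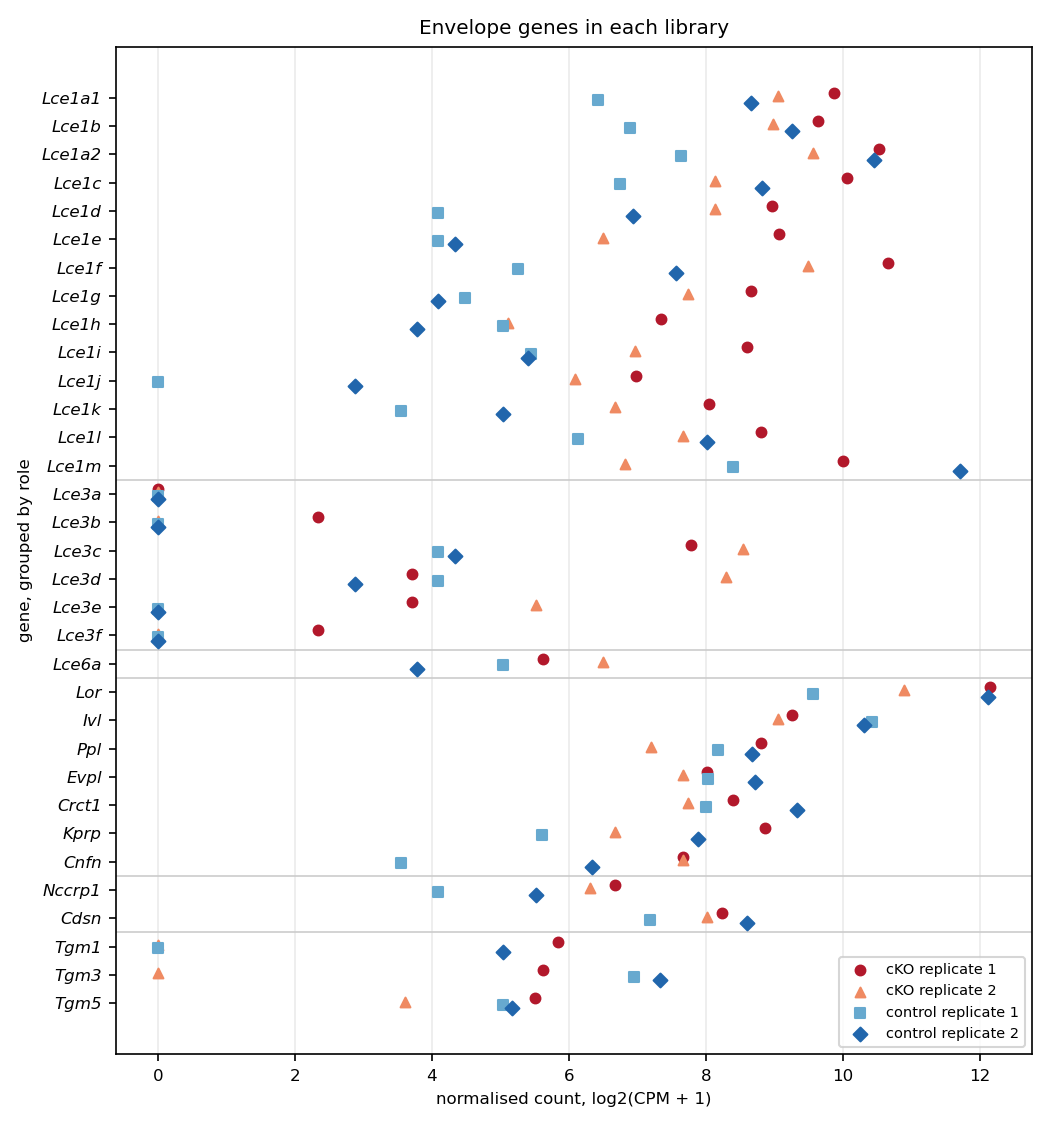
Normalised counts of the 33 members in each library, as log2(CPM + 1) on the x axis, with genes grouped by role on the y axis and 1 point per library. Control replicate 1 (light squares) lies left of control replicate 2 in most rows, while Lce1e, Lce1f, Lce1g and Lce3c show both cKO points to the right of both control points.

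With edgeR's quasi-likelihood test, 4 of the 25 tested members were higher in cKO at an adjusted p under 0.05 (Lce1e, Lce1f, Lce1g and Lce3c) and 0 were lower. Over all 4243 tested genes, 0.66% were called higher and 0.189% lower, 0.848% in all. At an unadjusted p under 0.05, 10 tested members were higher and 2 lower, against 4.22% of tested genes higher and 8.39% in either direction. The log2 fold change was above 0 in 19 tested members and in 50.4% of all tested genes. The filter matters for reading these counts. The filter's limit, 41.5 CPM of the library total, was reached in all 4 libraries by 13 members, and 0 of these were called, against 0.219% of all genes of that kind called higher. In 11 others it was reached in both cKO libraries and in fewer than 2 control libraries, so that they were tested because they were high in cKO. All 4 called members belong to these 11; among all 485 tested genes of that kind 4.74% were called higher and 69.3% had both cKO values above both control values, which all 11 members had. Of the 13 members that reached the limit everywhere, 1 had both cKO values above both control values, 2 had both below and 10 overlapped, against 37.5% of all genes of that kind without overlap and 20.2% with both cKO values above. The remaining tested member, Tgm3, reached the limit in both control libraries and in 1 cKO library. Among genes that reached it in both control libraries and in fewer than 2 cKO libraries, 49.3% did not overlap.

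**Figure D2:**
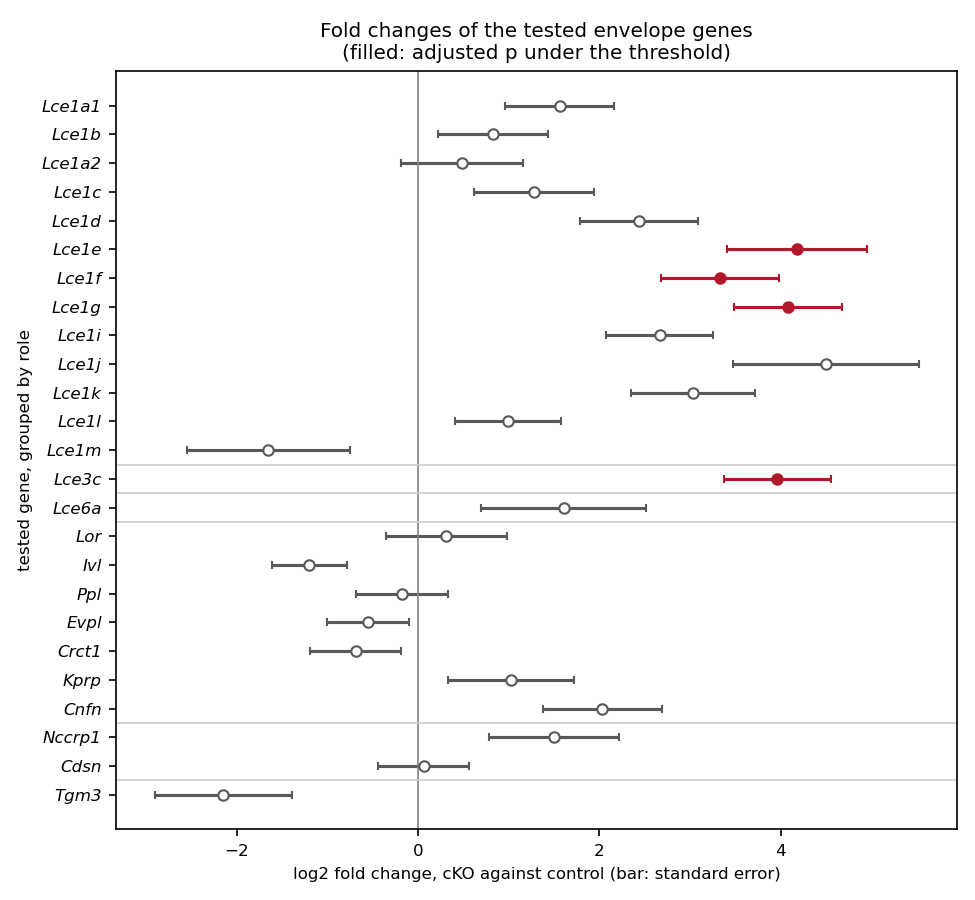
Log2 fold changes of cKO against control (x axis) with standard errors for the 25 tested members (y axis, grouped by role, Lce genes in the order of their positions). Filled points are the 4 genes called by edgeR, Lce1e, Lce1f, Lce1g and Lce3c; the remaining Lce1 genes lie between -1.65 (Lce1m) and 4.50 (Lce1j).

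Lce1g (ENSMUSG00000027919, chromosome 3, 92657455 to 92659645, minus strand; coordinates are those of the deposited table, GRCm39 per the submitters' processing notes) had counts of 100 and 19 in cKO and 4 and 5 counts in control. These were 404 and 214 CPM in cKO against 21.3 and 16.0 CPM in control. Both cKO libraries stood above both control libraries, which lay close together. The log2 fold change was 4.08 with a standard error of 0.59 (edgeR adjusted p 0.00344), a 16.9-fold higher level in cKO. Lce1e (ENSMUSG00000068889, chromosome 3, 92614708 to 92616381, minus strand) had counts of 133 and 8 in cKO and 3 and 6 counts in control, or 538 and 89.9 CPM against 16.01 and 19.2 CPM. The groups did not overlap, but cKO replicate 1 was far above cKO replicate 2. Its log2 fold change was 4.18 with a standard error of 0.77 (adjusted p 0.0207); without cKO replicate 1 it was 2.25 and the call was lost (adjusted p 0.671). Lce1f (ENSMUSG00000042124, chromosome 3, 92625992 to 92627657, minus strand) had counts of 402 and 64 in cKO and 7 and 59 counts in control, or 1625 and 719 CPM against 37.4 and 188 CPM. Control replicate 2 was the higher control library, as it was for Lor, and still lay below both cKO libraries. The log2 fold change was 3.32 with a standard error of 0.65 (adjusted p 0.0292), a 10.02-fold higher level in cKO, and it was 4.98 without control replicate 2, 2.65 without control replicate 1 and 2.55 without cKO replicate 1, called each time. limma-voom, another test on the same counts, called Lce1f (adjusted p 0.0368) but neither Lce1e (0.443) nor Lce1g (0.148).

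Next to these, 5 more tested Lce1 genes had both cKO values above both control values without passing the threshold, Lce1a1 and the following 4. Lce1i had 388 and 124 CPM in cKO and 42.7 and 41.5 CPM in control (log2 fold change 2.66, edgeR adjusted p 0.0647). Lce1k had 263 and 101.1 CPM against 10.7 and 31.9 CPM (3.03, adjusted p 0.0677). Lce1d had 501 and 281 CPM against 16.01 and 121 CPM (2.43, adjusted p 0.147). Lce1j had counts of 31 and 6 in cKO and 0 and 2 counts in control, a ratio of 27.5 with a 95% counting interval from 7.10 to 236 (adjusted p 0.0677). These 4 genes passed the threshold when the count filter was removed, with adjusted p from 0.00308 to 0.00596. Single libraries moved these values both ways. Without cKO replicate 2 all 4 passed, and without control replicate 2 Lce1d, Lce1j and Lce1k did, with log2 fold changes of 4.59 in Lce1d and 4.09 in Lce1k. Without cKO replicate 1, Lce1i was at 1.498 (adjusted p 0.481) and Lce1k at 2.09 (adjusted p 0.590), and without control replicate 1 Lce1d was at 1.71 (adjusted p 0.504). Lce1h, which did not pass the filter, had counts of 40 and 3 in cKO and 6 and 4 in control, so that cKO replicate 1 alone stood apart; scaled to library size, cKO replicate 2 lay just above control replicate 1, at 33.7 against 32.0 CPM. Without cKO replicate 2 the log2 fold change of Lce1h was 2.93, but it then passed the filter through cKO replicate 1 alone.

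The Lce1 genes Lce1a1, Lce1a2, Lce1b, Lce1c and Lce1l were less separated between the groups. Lce1a1 had 938 and 528 CPM in cKO and 85.4 and 406 CPM in control, without overlap (log2 fold change 1.56 with a standard error of 0.60, edgeR adjusted p 0.459). Lce1a2 had 1476 and 753 CPM against 197 and 1399 CPM, Lce1b 797 and 506 CPM against 117 and 613 CPM, and Lce1c 1072 and 281 CPM against 107 and 453 CPM. In these 3 genes control replicate 2 exceeded cKO replicate 2, and the log2 fold changes of 0.48, 0.82 and 1.28 had standard errors of 0.67, 0.60 and 0.66. Lce1l had 449 and 202 CPM in cKO and 69.4 and 259 CPM in control, with the same overlap (log2 fold change 0.99, adjusted p 0.716). Without control replicate 2, Lce1a1, Lce1a2 and Lce1c passed the threshold (log2 fold changes 3.12, 2.52 and 2.71), and without cKO replicate 2 Lce1a1 and Lce1c did. Without control replicate 1, in contrast, Lce1a1 was at 0.87 (adjusted p 0.998), Lce1b at 0.10 and Lce1c at 0.61, and without cKO replicate 1 Lce1l was at 0.21.

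Lce1m (ENSMUSG00000027912, chromosome 3, 92925117 to 92926367, minus strand), which lies apart from the other Lce1 genes beyond the Lce3 genes and Crct1, was the only tested Lce1 gene with a log2 fold change below 0. It had counts of 253 and 10 in cKO and 63 and 1053 counts in control, or 1023 and 112 CPM against 336 and 3363 CPM. The groups overlapped, because cKO replicate 1 exceeded control replicate 1. The log2 fold change was -1.65 with a standard error of 0.90 (edgeR adjusted p 0.706). The value depended on single libraries: it was -4.09 without cKO replicate 1 (adjusted p 9.24e-05), -2.51 without control replicate 1 (adjusted p 0.00706) and 0.83 without control replicate 2 (adjusted p 0.999).

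The make-up of the Lce1 counts within each library does not depend on library scaling, and in 3 genes the groups stood apart. Lce1m took 10.5% (95% exact binomial interval 9.29% to 11.8%) and 2.80% (1.35% to 5.09%) of the Lce1 counts in cKO, and 30.9% (24.6% to 37.7%) and 48.5% (46.4% to 50.7%) in control. Lce1f took 16.7% (15.2% to 18.2%) and 17.9% (14.1% to 22.3%) in cKO, and 3.43% (1.39% to 6.94%) and 2.72% (2.08% to 3.49%) in control. Lce1d took 5.14% and 7.0% in cKO and 1.47% and 1.75% in control. In these 3 genes the intervals of the groups did not touch, although total Lce1 counts ranged from 204 to 2414 per library. Of 14 genes, 7 had a higher share in both cKO libraries, 1 a lower share (Lce1m) and 6 overlapped, Lce1a2 among them with 15.1% and 18.8% against 18.1% and 20.2%. Shares of one total are tied to each other, so a lower share of Lce1m raises the others. Over the Lce1 counts without Lce1m, a denominator chosen after seeing the data, 6 of 13 genes had a higher share in both cKO libraries, 4 a lower one and 3 overlapped, Lce1a1 among them. Lce1f then took 18.6% (17.0% to 20.3%) and 18.4% (14.5% to 22.9%) in cKO against 4.96% (2.02% to 9.96%) and 5.28% (4.04% to 6.76%) in control, and its intervals still did not touch, while those of Lce1d did. Lce1a2 took 16.9% and 19.3% in cKO against 26.2% and 39.2% in control, lower in both cKO libraries. These counts are descriptions, with no background over other genes. The 7 neighbours from Lce1e to Lce1k, a run chosen after its values were seen, together took 35.9% and 33.6% of the Lce1 counts in cKO against 14.7% and 4.56% in control, and 40.1% and 34.6% against 21.3% and 8.86% of the Lce1 counts without Lce1m. With 2 libraries per group an exact permutation test cannot give a two-sided p below 0.33, so no test of these shares was made.

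**Figure D3:**
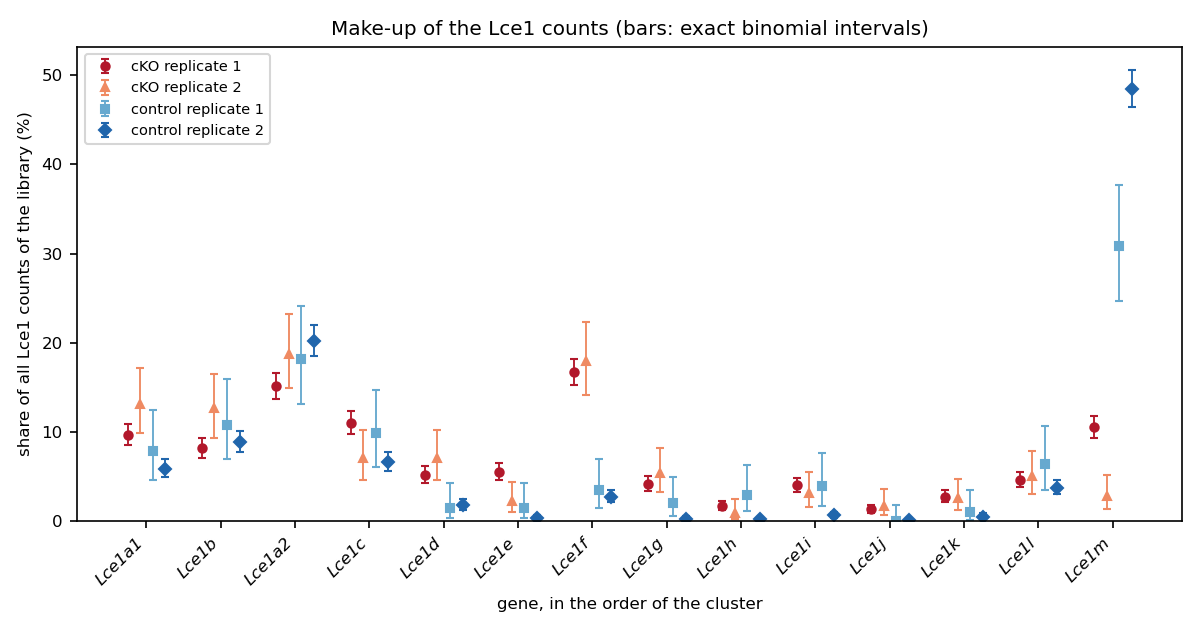
Share of a library's Lce1 counts (y axis, percent) taken by each Lce1 gene (x axis, in the order of the cluster), 1 point per library with 95% exact binomial intervals. Lce1m took 30.9% and 48.5% in control against 10.5% and 2.80% in cKO, and Lce1f 3.43% and 2.72% against 16.7% and 17.9%, while Lce1a2 overlapped.

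The Lce3 genes, which are sparse in healthy skin and are known to be induced after barrier injury, were low in control, and their counts in cKO came mostly from Lce3c and Lce3d. Together they had counts of 62 and 65 in cKO and 6 and 8 counts in control, which was 0.0220% and 0.0547% of all counts against 0.00300% and 0.00248%. Lce3c (ENSMUSG00000045475), on the plus strand of chromosome 3 from 92851793 to 92853040, had counts of 54 and 33 in cKO and 3 and 6 counts in control. These were 218 and 371 CPM against 16.01 and 19.2 CPM, with both cKO libraries above both control libraries. The log2 fold change of Lce3c was 3.96 with a standard error of 0.59 (edgeR adjusted p 0.00378), a 15.6-fold higher level in cKO; limma-voom did not call it (adjusted p 0.189). Lce3d had counts of 3 and 28 in cKO and 3 and 2 in control, so only cKO replicate 2 was high. The log2 fold change of Lce3d was 4.81 without cKO replicate 1 and 4.41 without control replicate 1. In both fits it passed the filter through cKO replicate 2 alone, so these values are descriptions. Lce3e had counts of 3 and 4 in cKO and 0 in both control libraries, Lce3b and Lce3f had 1 count each, in cKO replicate 1, and Lce3a had 0 counts in all 4. The Lce3 transcripts are near-identical: Lce3c and Lce3d are the same at 95.7% of 486 aligned bases, and how reads shared between such copies were divided is not given in the sources used here. With the 6 Lce3 genes summed into 1 row, the log2 fold change was 4.04 (edgeR adjusted p 0.00545). Like Lce3c, the summed row was low in control and passed the filter through the cKO libraries alone, so this value is a description. No Lce1 transcript reached 95% identity over at least 150 bases with another gene; the nearest pair was Lce1c and Lce1f, at 94.3% of 495 bases. Lce6a, a more distant member of the family, had counts of 12 and 8 in cKO and 6 and 4 in control (log2 fold change 1.60, adjusted p 0.716).

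Among the structural precursors, which make the scaffold and most of the mass of the envelope, 0 of 7 were called. Lor, which encodes loricrin, the main protein of the shell, had 4561 and 1911 CPM in cKO and 758 and 4471 CPM in control. The 2 high libraries were 1 of each group, as were the 2 low ones, so the groups overlapped (log2 fold change 0.31 with a standard error of 0.67, edgeR adjusted p 0.988). Ivl, which encodes the scaffold protein involucrin, did not overlap. It had counts of 152 and 47 in cKO and 257 and 397 counts in control, or 615 and 528 CPM against 1371 and 1268 CPM. The replicates of each group lay close together and both cKO values were below both control values, a pattern that 19.6% of tested genes had. Its log2 fold change was -1.20 with a standard error of 0.42, short of the threshold (adjusted p 0.359, unadjusted p 0.0125), and it stayed between -1.42 and -1.09 in all 17 alternatives, of which 1, chosen after seeing the data, passed.

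Lor gives a yardstick within each library for the genes of the same late stage. The Lce1 genes together had 2.14 and 2.10 counts per Lor count in cKO and 1.44 and 1.55 in control, with 95% intervals of 1.99 to 2.30, 1.74 to 2.54, 1.15 to 1.79 and 1.45 to 1.66. These ratios were alike between replicates although Lor itself differed 5.90-fold in CPM between the control libraries. Without Lce1m, the ratios were 1.92 and 2.04 in cKO and 0.993 and 0.798 in control. Involucrin had 0.135 and 0.276 counts per Lor count in cKO and 1.81 and 0.284 in control, so that control replicate 1 stood apart from the other 3 libraries. These ratios are descriptions with no test.

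**Figure D4:**
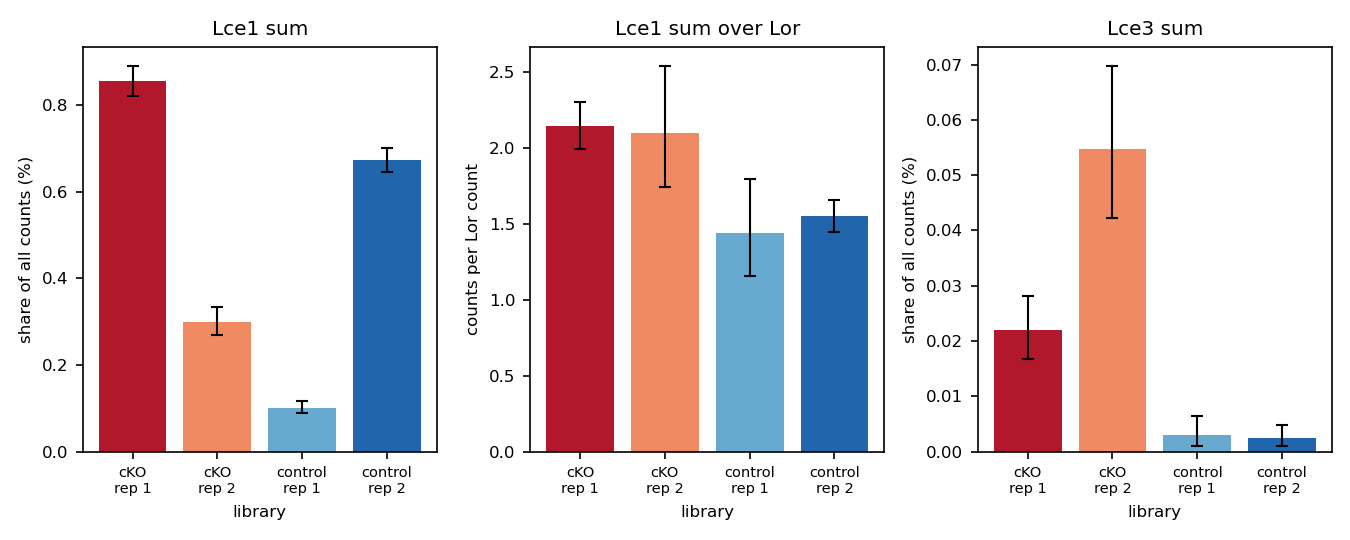
Bars give, per library (x axis), the Lce1 sum as a percent of all counts, the Lce1 sum per Lor count and the Lce3 sum as a percent of all counts, with 95% exact binomial intervals. The Lce1 share overlaps between groups (0.855% and 0.300% against 0.102% and 0.673%), while the ratio to Lor is 2.14 and 2.10 in cKO against 1.44 and 1.55 in control, and the Lce3 share is higher in both cKO libraries.

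None of the other structural precursors passed the test. Ppl and Evpl encode periplakin and envoplakin, which tie the envelope to desmosomes and keratin filaments. Ppl had 445 and 146 CPM in cKO and 288 and 409 CPM in control, with full overlap. Evpl had 259 and 202 CPM against 261 and 422 CPM, where cKO replicate 1 lay just under control replicate 1 (log2 fold change -0.55 with a standard error of 0.45). Crct1, a small cysteine-rich gene next to Lce1m, had 336 and 214 CPM in cKO and 256 and 642 CPM in control, and Kprp, which encodes a proline-rich keratinocyte protein, had 465 and 101.1 CPM against 48.03 and 236 CPM. Both overlapped between groups (edgeR adjusted p 0.823 and 0.799). Cnfn, which encodes cornifelin, had counts of 50 and 18 in cKO and 2 and 25 counts in control, or 202.2 and 202.3 CPM against 10.7 and 79.8 CPM. The cKO libraries were nearly equal and lay above both control libraries, but the difference did not pass the threshold (log2 fold change 2.03 with a standard error of 0.66, adjusted p 0.298); without control replicate 2 it was 4.17 and passed, and without control replicate 1 it was 1.34 (adjusted p 0.960).

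Cdsn encodes corneodesmosin, the glycoprotein that holds cornified cells together at modified desmosomes. It had 299 and 258 CPM in cKO and 144 and 386 CPM in control; both cKO values fell between the control values, and the log2 fold change was 0.06 with a standard error of 0.50. This sign is not determined, since it was -0.17 with library totals as the scaling. Nccrp1, an F-box family gene of stratified epithelia, had 101.1 and 78.7 CPM in cKO and 16.01 and 44.7 CPM in control, without overlap (log2 fold change 1.5, edgeR adjusted p 0.607).

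The crosslinking enzymes were scarce. The 3 transglutaminases together had counts of 37 and 1 in cKO and 29 and 71 counts in control. Tgm3, the enzyme of the upper epidermis and hair follicle, had counts of 12 and 0 in cKO and 23 and 50 counts in control, or 48.5 and 0 CPM against 123 and 160 CPM. Both cKO values were below both control values, and the log2 fold change was -2.15 with a standard error of 0.76 (edgeR adjusted p 0.368). The value came to -7.82 and passed without cKO replicate 1, where the remaining cKO library is at 0, so that its size depends on the prior count of the fit and is no bound; 3 counts there would be 33.7 CPM. Tgm1, the membrane-anchored enzyme of the epidermis, had counts of 14 and 0 in cKO and 0 and 10 counts in control, and Tgm5 had counts of 11 and 1 in cKO and 6 and 11 in control. Neither passed the count filter. Tgm1 was seen only in the deeper library of each group, and no difference was detectable at this depth for either gene. Exons of Tgm1 share 182 bases with a non-coding gene on the opposite strand, and whether counting used strand is not given in the sources used here. A list of other transglutaminases and of proteins linked to their processing had 0 of 7 tested genes called. In it Cst6, which encodes the cystatin that restrains proteases acting on Tgm3, had counts of 1007 and 1426 in cKO and 435 and 642 in control. Scaled to library size these were 4072 and 16026 CPM against 2321 and 2050 CPM, so cKO replicate 2 stood far above cKO replicate 1 (log2 fold change 2.20, edgeR adjusted p 0.147).

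Other genes of the envelope were taken from a list of 30 symbols, chosen with earlier results of these data known. Of these, 16 were tested, 6 were called higher in cKO and 1 was called lower, against the 0.66% and 0.189% of all tested genes given above. The higher ones were Sprr2a1, Sprr2a2 and Sprr2a3, which encode small proline-rich crossbridging proteins with shared sequence, Flg and Hrnr, which encode filaggrin and its relative hornerin, and Casp14, a protease of filaggrin breakdown. Hrnr had counts of 403 and 43 in cKO and 16 and 56 in control, but scaled to library size its groups did not overlap (log2 fold change 2.99, edgeR adjusted p 0.0329). Tchhl1, a relative of trichohyalin, was the lower one, with counts of 43 and 13 in cKO and 158 and 258 in control (log2 fold change -2.36, adjusted p 0.0219). The median log2 fold change of the 16 was 2.51, that of the 25 tested members was 1.28 and that of all tested genes was 0.01. Sprr2a1, Sprr2a2, Sprr2a3 and Casp14 had at most 2 counts in each control library and passed the filter through the cKO libraries alone. Among all 485 tested genes of that kind, 4.74% were called higher. Both cKO values lay above both control values in 69.3% of the 485. As with the members, these medians and counts are therefore descriptions. Lists of the lipid envelope and its enzymes (11 tested), of the corneodesmosome and its proteases (9 tested) and of transcription factors of terminal differentiation (14 tested) had 0 called genes each, with medians of 0.26, 0.04 and 0.02. The lowest adjusted p among these lists was that of Dsg1a, a desmosomal cadherin, with counts of 257 and 81 in cKO and 430 and 1020 in control (log2 fold change -1.51, adjusted p 0.184).

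Markers of other cells were summed in the same libraries. Basal keratinocyte markers took 0.755% and 0.459% of counts in cKO and 0.540% and 0.4497% in control, with 0 of 6 tested genes called. Skeletal muscle markers (10 genes, all detected) had counts of 11 and 12 in cKO and 282 and 324 in control. Of 7 tested genes, 0 had a log2 fold change above 0 and 4 were called lower, against 0.189% of all tested genes called lower. Hair shaft and inner root sheath markers, of which Krt27, Krt31, Krt33b and Krt73 were at 0 in every library, took 0.0361% and 0.0261% in cKO and 0.131% and 0.126% in control, with nearly all counts from Tchh. Both cKO values were below both control values, as they also were in Tgm3, Ivl, Evpl and the summed muscle and T cell markers. Among single tested genes, 19.6% had this pattern. Langerhans cell markers took 0.137% and 0.289% against 0.391% and 0.238%, and T cell markers 0.0216% and 0.0135% against 0.0315% and 0.0257%. Sebaceous gland markers took 0.0726% and 0.178% in cKO and 0.0949% and 0.0716% in control, fibroblast markers 0.00319% and 0.0454% against 0.0150% and 0.00992%, and melanocyte markers 0.0120% and 0.0320% against 0.0305% and 0.00837%. Of the endothelial markers, Cdh5 and Kdr were at 0 in every library. In the muscle and hair lists the groups did not overlap, and in the other lists with counts from every library all except T cell markers did. The part of these cells in the values of the envelope genes was not tested.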

How the data were processed

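Epidermal RNA from 4 libraries was analysed, 2 per genotype, grouped by title. The authors deposited whole-number counts for each gene, 1 column per library, from 3' libraries (QIAseq UPX, converted for MGI sequencing) per the labels' protocols. Trim Galore 0.6.7, Trimmomatic 0.39, cutadapt 3.7, STAR 2.7.10a, featureCounts 2.0.1 and GRCm39 are named per the submitters' processing notes, without settings. Use of molecular identifiers, strand and multiply aligned reads is not given in the sources used here.

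Genes were filtered with filterByExpr (minimum count 10, minimum total 15), which kept 4243 genes with 87.6% of counts, scaled with TMM and tested with glmQLFit and glmQLFTest in edgeR 4.0.16 (R 4.3.3), genotype as the only term, with Benjamini-Hochberg adjustment over all genes tested. The standard error is the absolute log2 fold change over the square root of F. The fit was tested on simulated data. Alternatives used DESeq2 1.42.0, limma 3.58.1 (voom), other scalings and filters, a replicate block, a looser threshold and each library left out. Stim2 was under the filter and was added to a separate fit.

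Near-identical copies (at least 95% identity over at least 150 bases) were sought with blastn 2.17.0 among GENCODE M21 transcripts. Promoters are RefSeq, GRCm38.p6, matched by symbol, and their coordinates were not combined with those of the table. The members and gene lists were chosen with earlier results of these data known. All members are named; full counts or CPM are given for those with at least 20 counts in all. From other lists, called genes are named, and otherwise at most 3 genes, those of largest absolute change with mean CPM of 10 or more. The word shared by promoters and the run from Lce1e to Lce1k were chosen after their values were seen. Unused per-sample columns numbered 0. Protein sequences were not used here.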

Additional observations from a re-analysis of the deposited data

How the results depend on the processing

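Scaling changed no call among the members. With DESeq2 size factors, upper-quartile factors, library totals or library sizes without the 20 most abundant genes, 4 members were called higher and 0 lower. The same 4 were called with a robust fit, glmQLFit without its legacy mode or DESeq2. With near-identical copies summed, Lce1e, Lce1f, Lce1g and the summed Lce3 row were called higher and 0 lower. Over all genes the counts were 28 higher and 8 lower in the edgeR fit reported. Without a count filter they were 49 and 26, with 9 members higher; with a mean of at least 10 CPM, 15 genes were lower and 8 members higher; with an adjusted p under 0.10 they were 43 and 17, with 7 members higher; and with limma-voom 12 and 3, with 1 member higher (Lce1f). The cause of these shifts was not tested. The replicate numbers share no stated animal, litter or day, so they do not pair the libraries; with the number as a replicate block, 16 genes were higher, 1 was lower and 2 members were higher (Lce1g and Lce3c). Deviations of same-numbered libraries correlated at -0.1995, and with the numbers crossed in the replicate block, an alternative chosen after seeing the data, 90 genes were higher, 57 lower, 11 members higher and 3 lower.

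With each library left out in turn, all genes called higher ranged from 34 to 59 and lower from 8 to 34, and members called higher ranged from 4 to 11 and lower from 0 to 2. Over the same 4 left-out libraries, the log2 fold change crossed 0 in 8 members tested in the fit reported, none of them called there. It ranged from -0.32 to 2.52 in Lce1a2, -0.0756 to 2.71 in Lce1c, -4.09 to 0.83 in Lce1m and -0.50 to 2.12 in Lor. The range was -1.30 to 0.35 in Ppl, -1.19 to 0.15 in Crct1, -0.59 to 2.64 in Kprp and -0.46 to 0.97 in Cdsn. Tgm5, not tested in the fit reported, was at -0.17 without control replicate 1 and 0.40 without cKO replicate 2. Cdsn was also at -0.17 with library totals, -0.0101 without the 20 most abundant genes in the library size and -0.0188 without a count filter. Lce1j could not be fitted without cKO replicate 1, where it did not pass the filter. A library left out leaves 1 sample in its group, which is then assumed to vary like the other group. Depth left 8 members untested: Lce1h, Tgm1, Tgm5 and the Lce3 genes other than Lce3c.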
